A study of Mus musculus with 22 samples.

Results

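Among the pooled solid organs of mice of different Nalcn genotype, 394 barcodes carried transcripts of a stratified, keratin 5 and p63 type of epithelium. They were found by a rule on 8 genes (Krt5, Krt14, Krt15, Krt13, Krt4, Trp63, Dsg3 and Sfn): a member had at least 200 detected genes, at most 25% mitochondrial transcripts, at least 1 unique molecular identifier (UMI, a counted transcript molecule) of at least 3 of these genes, and no UMI of Ptprc (leukocytes), Pecam1 (endothelium), Sftpc (alveolar type 2 cells) or Gkn1 (gastric surface cells). Members were 0.423% of the 93055 tissue barcodes that passed the quality filter, out of 179929 barcodes in the whole series. Because measured values chose them, the levels of the rule genes are given as a description only.

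The 11 tissue libraries were 10x 3′ libraries of whole-organ suspensions pooled from kidney, liver, lung, stomach and epididymis (labelled males) or uterus (labelled females). All mice were of strain Prom1-CreERT2;Rosa26ZSG, in which a tamoxifen-induced recombinase under the Prom1 promoter switches on the ZsGreen tag, and Nalcn-het and Nalcn-null strains also lose 1 or both copies of Nalcn, but only in cells that had expressed Prom1. The tissue suspensions were not sorted for ZsGreen, so deleted and undeleted cells were mixed in them. Of the wt libraries, replicates 1 and 2 (male, 571 days), 3 (male, 608 days), 4 (female, 611 days) and 5 (female, 654 days) were available; the het libraries were replicates 1 and 2 (male, 551 days), and the null libraries replicates 2 (male, 552 days) and 3 (female, 611 days). A male library of 610 days and a female library of 647 days had titles and strain entries naming different genotypes, and are called ungrouped tissue libraries 1 and 2. Blood was measured in 10 libraries of sorted ZsGreen-positive circulating cells of mice without tumours, called ntCZC, from 2 wt (male, 571 to 608 days), 4 het (3 male, 1 female, 551 to 649 days) and 4 null (1 male, 3 female, 551 to 613 days) samples of the same strains, and in 1 library of unsorted mononuclear cells (PBMC) of a wt male of 120 days. The labels name no animals, so p-values measure the spread between libraries.

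In stratified epithelia, KRT5 and KRT14 form the filaments of the basal layer, which rests on a basement membrane and is maintained by the transcription factor p63 (Trp63), and cells that leave it switch to other pairs, such as KRT4 and KRT13 in the lining of the oesophagus and forestomach. Urothelium, the lining from renal pelvis to bladder, also has KRT5-positive basal cells, and its upper cells make uroplakins (Upk1a, Upk1b, Upk2, Upk3a), membrane proteins that form the plaques of the urine-facing surface. Basal cells with KRT5 and p63 also lie under the ducts of the epididymis. No organ could be assigned to a barcode, because hashtag counts were not used here.

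Library quality set how much can be read. Members numbered 7, 60, 29, 58 and 1 in wt replicates 1 to 5, 22 and 18 in het replicates 1 and 2, 14 and 111 in null replicates 2 and 3, and 30 and 44 in ungrouped libraries 1 and 2, so 3 libraries held 58.1% of them. The median member had 5011 UMIs, against 1839 in other passing barcodes, and was deeper in 11 of 11 libraries. The exclusion genes removed 339 of 733 barcodes with at least 3 rule genes (46.2%), 151 of them for Ptprc and 145 for Gkn1. Doublet calls were a preset number of the highest Scrublet scores in each library, at a rate of 0.8% per 1000 barcodes. They took in 83 of 394 members, against 16.2% of all passing tissue barcodes. In het replicate 1 they took in 19 of the 22 members, against 10.3% of its passing barcodes. Separately, 20 member barcodes also occurred in another library. Null replicate 3 went against its labels: it was labelled female with uterus, but of its 111 members 82 had UMIs of Xist only, 13 of Y-linked genes only and 6 of both, and epididymal transcripts made up 30492 CPM (counts scaled so that the summed cells of a library total 1000000) of its other barcodes. It is called the library labelled null replicate 3, and the share and the counts of called genes are given without it too.

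**Figure D1:**
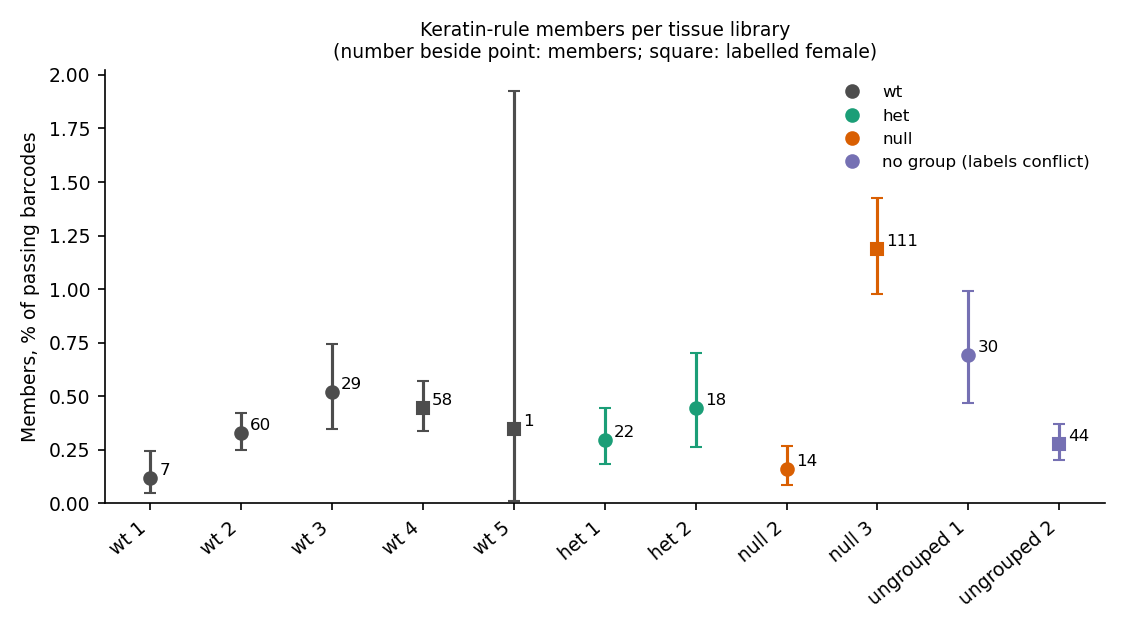
Members as a percentage of passing barcodes in each tissue library, with exact 95% Clopper-Pearson intervals, which cover counting error only. Shares ran from 0.118% in wt replicate 1 to 1.19% in the library labelled null replicate 3; the interval of wt replicate 5 is wide because it had 1 member among 287 barcodes.

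Most members carried basal-layer transcripts. Krt5 was detected in 81.5% of members, Sfn, an epithelial 14-3-3 protein, in 81.0%, Trp63 in 67.8%, Krt15 in 66.0% and Krt14 in 45.7%, whereas Krt4 was detected in 17.8%, Krt13 in 7.87% and Dsg3, the desmosomal cadherin of stratified squamous layers, in 1.02%. On the mm10 build these genes lie at chr15:101707070-101712898 (Krt5), chr11:100203162-100207548 (Krt14), chr16:25683763-25892102 (Trp63), chr15:101918535-101924735 (Krt4) and chr11:100117327-100121566 (Krt13). By class, 299 members had Krt5 or Krt14 without Krt13 or Krt4, 34 had Krt13 or Krt4 without Krt5 or Krt14, 47 had both and 14 had neither. Barcodes just inside the threshold, with exactly 3 rule genes and no exclusion gene, numbered 203 and had a median of 4063 UMIs, and the 254 just outside, with 2 rule genes, had 3371.

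The label "squamous" met the data only in part. Uroplakin genes, which the rule did not use, marked a large share of members: at least 2 of Upk1a (chr7:30603092-30612847), Upk1b (chr16:38773184-38800328), Upk2 (chr9:44452715-44454976) and Upk3a (chr15:85017141-85022547) were detected in 140 of 394 members (35.5%, exact 95% interval 30.8 to 40.5), against 0.498% of the 92661 other passing barcodes. The barcodes most like members shared the trait, which held in 28.3% of the 254 barcodes with 2 rule genes and no exclusion gene. Among members it held in 40.4% of the 203 with 3 rule genes, 34.6% of 127 with 4, 21.6% of 51 with 5, 18.2% of 11 with 6 and 50% of 2 with 7. All 4 were detected in 52 members. Per library the share was 57.1% in wt replicate 1, 26.7% in replicate 2, 20.7% in replicate 3 and 60.3% in replicate 4, 31.8% and 33.3% in the 2 het libraries, 21.4% and 39.6% in the 2 null libraries, and 20% and 29.5% in ungrouped libraries 1 and 2. Each of these 10 libraries lay above all shares of other barcodes, the highest of which was 0.892%. The single member of wt replicate 5 had 1 uroplakin gene. With every cell thinned to 1000 UMIs, at least 2 uroplakins were detected in 18.9% of 387 members and 0.251% of 73174 other barcodes, after 7 members and 19487 others below that depth were left out, so that a gap remained at equal depth. Members are therefore called here by their rule, as keratin-rule members, and not as a squamous cell type.

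**Figure D2:**
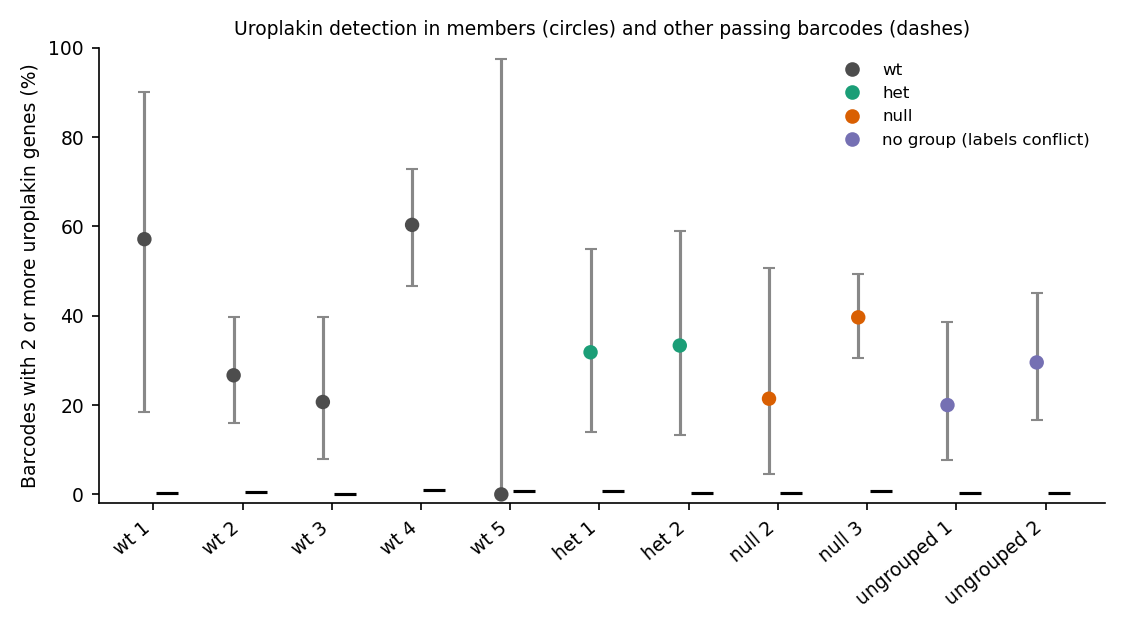
Percentage of barcodes with at least 2 of 4 uroplakin genes, among members (circles, with exact 95% intervals) and among other passing barcodes of the same library (dashes). In the 10 libraries with more than 1 member, members lay between 20% and 60.3%, and other barcodes below 1% in all 11.

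The uroplakin signal did not define the group in reverse. Of 601 passing barcodes with at least 2 uroplakin genes, 140 (23.3%) were members, 322 had fewer than 3 rule genes and 139 were removed by an exclusion gene. Within the members, the 136 with at least 2 uroplakins and under 2% epididymal transcripts differed in their keratins from the 233 with neither feature and without several of the keratins of stressed or cornifying layers. Krt14 was detected in 14.7% of the former and 60.1% of the latter, Krt17 in 4.41% and 23.2%, whereas Krt19 was detected in 98.5% and 77.3% and Krt5 in 80.1% and 84.1%. Upk3a stood at 2571 CPM in the former and 4.08 CPM in the latter, a gap that follows from the definition of the classes by uroplakins. Shh, the hedgehog ligand made by basal cells of urothelium and other linings, was detected in 62 of the 136 and 35 of the 233, and Gsta4, a glutathione transferase, in 97.1% and 68.2%. The former had a median of 6232 UMIs and 12.5% doublet calls, the latter 4134 UMIs and 24.0%. Of all passing tissue barcodes 16.2% were called doublets. The part of depth and doublets in these shares was not tested. These classes were set after values were seen, so no test was made.

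Several other transcripts were detected in at least 80.5% of members, close to the share with Krt5. Wfdc2, a secreted protease inhibitor of many ducts, was detected in 91.1% of members (3045 CPM pooled), Ly6d in 86.8% (3459 CPM), Krt8 in 84.5%, Krt19 in 82.5%, Krt18 in 81.0% and Krt7 in 80.5%. The keratins 7, 8, 18 and 19 are those of simple and transitional epithelia. Several genes of cornified layers were at or near 0: Flg was found as 1 UMI, Flg2, Hrnr and Krt2 as 0, Krtdap in 3 members, Lor in 8, and Dsg1a, Dsc1 and Cdsn in none. Sprr1a (1135 CPM) and Sprr2a3 (730.4 CPM), small proline-rich proteins of cross-linked envelopes, were abundant members of the cornified envelope list, which was higher in members than in other barcodes in 11 of 11 libraries when summed; Sprr1a was detected in 64.0% of members. Sox2, a factor of foregut basal cells, was found in 8 members.

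Across the gene lists, counts are set beside all 25482 genes with a UMI, of which 6.04% were higher in members than in the other barcodes of the same library in at least 9 of 11 libraries, and whose median ratio of members to others was 0.58. The rule chose the cells, so these are descriptions. Of 14 genes of basal-layer adhesion, 12 were higher in at least 9 libraries, among them Col17a1 (50.7 against 0.88 CPM) and Itgb4 (95.6 against 5.49 CPM), which anchor basal cells to the basement membrane, while Cd44 was higher in members in 0 of 11 libraries. Of 12 desmosome genes 7 were higher, among them Perp (298.7 against 31.4 CPM), Dsp (155.3 against 18.0 CPM) and Pkp1 (29.3 against 0.461 CPM). Of 11 tight and adherens junction genes 10 were higher, including Cldn4 (392.2 against 26.5 CPM) and Cdh1 (265.8 against 36.2 CPM). Of 10 genes of the suprabasal transcription factor list 4 were higher, among them Klf5 (420.8 against 19.5 CPM) and Elf3 (361.7 against 28.9 CPM). Of 6 urothelial marker genes 5 were higher, with a median ratio of 24.5. The proliferation list gave 1 of 15 genes, and Mki67 was found in 9 members; its summed level was highest in wt replicate 3 (1966 CPM), where Mki67 stood at 344.8 CPM and Top2a at 254.1 CPM, against at most 11.2 and 22.3 CPM in any other library.

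Markers of other cell types moved with some libraries. Leukocyte markers summed to 501 CPM in members and 7034 CPM in other barcodes, endothelial to 52.9 and 938.3 CPM, fibroblast to 99.2 and 433.9 CPM, and each of these lists was below the other barcodes in all 11 libraries. The rule removed barcodes with Ptprc or Pecam1, so the low leukocyte and endothelial sums follow in part from it. Epidermal markers reached 611 CPM in wt replicate 4 and at most 130 CPM elsewhere. Airway club markers were at 372.2 against 7883 CPM, with Scgb1a1 at 224.1 against 7526 CPM. Red cell transcripts ranged from 26.3 to 11565 CPM in members of libraries with at least 10 members. Their part in the results below was not tested.

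**Figure D3:**
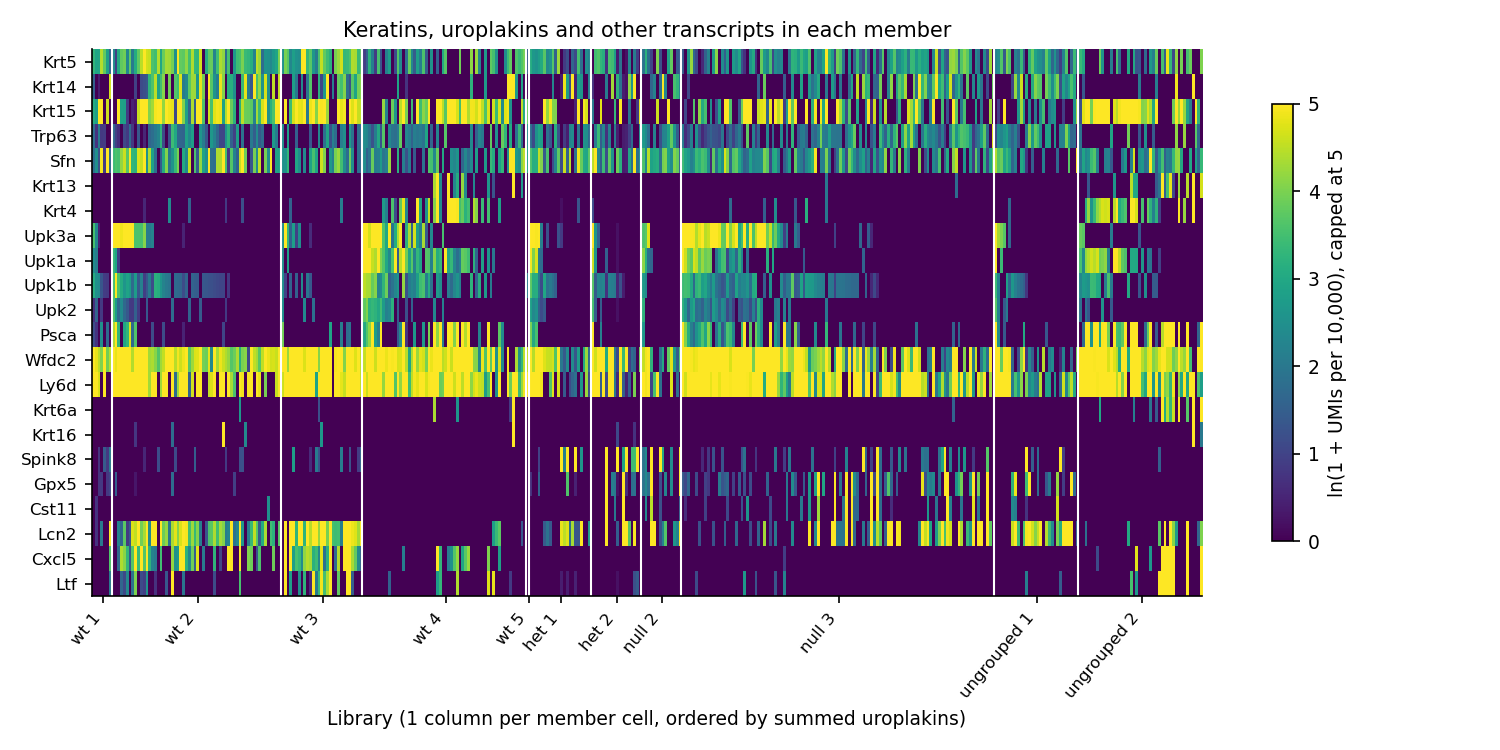
Each column is 1 of the 394 members, grouped by library and ordered within it by summed uroplakins; colour is the natural log of 1 plus UMIs per 10,000, capped at 5. Wfdc2 and Ly6d run across nearly all members, uroplakins mark part of each library, Krt13 and Krt4 lie mainly in wt replicate 4 and ungrouped library 2, and Spink8, Gpx5 and Cst11 in the het and null libraries and ungrouped library 1.

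Krt13 and Krt4 were found mainly in members of 2 libraries, both labelled female with uterus. In wt replicate 4, 30 of 58 members (51.7%) had either gene, and in ungrouped library 2, 33 of 44 (75.0%). In each of the other 9 libraries at most 7 members had one, and the highest share there was 9.09%, in het replicate 1. Krt13 was detected in 13 members of wt replicate 4, 16 of ungrouped library 2 and 2 of the library labelled null replicate 3, and in none of the 180 members of labelled-male libraries. The other female library with members beyond 1, that labelled null replicate 3, had Krt13 or Krt4 in 7 of 111 (6.31%). It went against its labels, so it cannot tell whether sex orders the libraries. In other barcodes Krt13 stood at 2.21, 16.8 and 8.09 CPM in wt replicates 4 and 5 and ungrouped library 2. It stood at 0.212 CPM in the library labelled null replicate 3 and at 0.0805 to 0.188 CPM in labelled-male libraries.

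The split into basal and suprabasal is given by genotype as a description, since its genes chose the members. Among members with one class only, the basal share in libraries with at least 20 members was 100% in wt replicates 2 and 3 and 61.4% in wt replicate 4, and 100% in het replicate 1 and 99.0% in the library labelled null replicate 3. The groups overlapped, with means of 87.1% ± 22.3 (SD, n = 3) in wt and 99.5% ± 0.74 (SD, n = 2) in Nalcn-deleted libraries (het and null together). The means differed by 12.4 percentage points, and wt replicate 4 was the lowest of the 5 libraries.

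**Figure D4:**
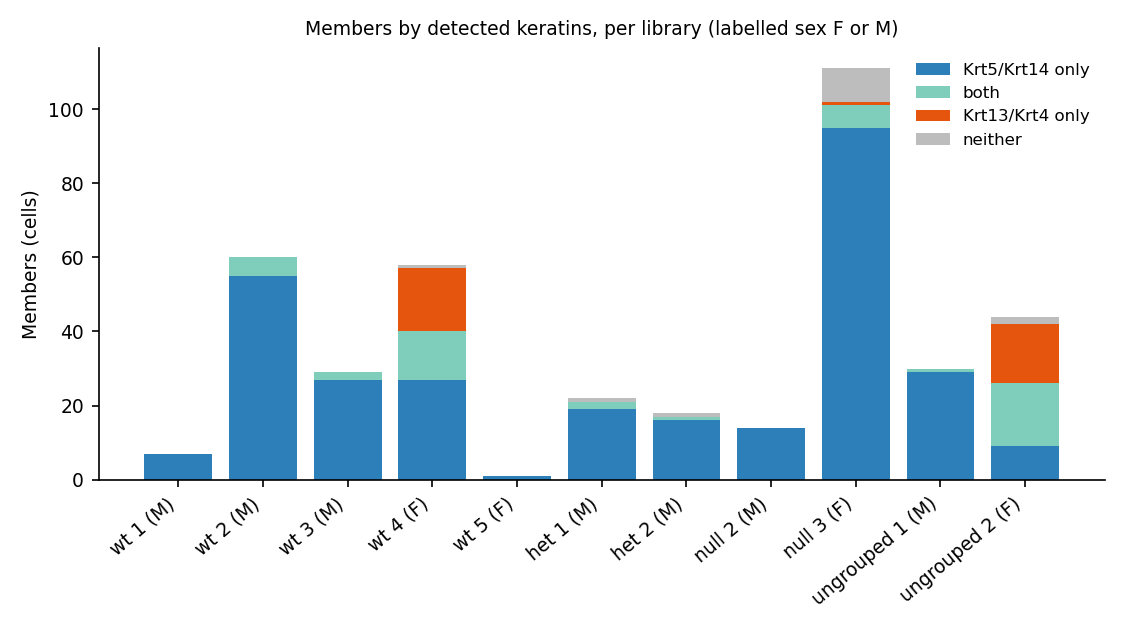
Number of members per library by detected keratins. Members with Krt13 or Krt4 only (orange) number 17 in wt replicate 4, 16 in ungrouped library 2 and 1 in the library labelled null replicate 3, with none elsewhere.

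No library held 20 cells of both classes, so basal-only and suprabasal-only members were set side by side in wt replicate 4 (27 and 17 cells) and ungrouped library 2 (9 and 16 cells), a choice made after the counts were seen and without a test. Suprabasal-only cells had more Clca1, a secreted mucin-processing protein (624.4 against 0 CPM), Olfm4 (570.9 against 0 CPM), the neutrophil chemokine Cxcl5 (303.3 against 0 CPM), the immunoglobulin transporter Pigr (499.5 against 5.45 CPM) and lactoferrin, Ltf (704.7 against 10.9 CPM). Basal-only cells had more Spp1, osteopontin (1925 against 26.8 CPM), Upk3a (1887 against 44.6 CPM) and Lgals7, a galectin of stratified epithelium (332.6 against 0 CPM). The same direction in both libraries was required for a gene to be named here, so this agreement is no support. For Cxcl5 the direction rested on 16.5 CPM in suprabasal-only cells of ungrouped library 2, against 642 CPM in wt replicate 4. All members of ungrouped library 2 held 599 Cxcl5 and 876 Ltf UMIs. The suprabasal-only cells of both libraries together held 34 and 79 and the basal-only cells 0 and 2, so most lay outside these classes. Within these libraries, Upk1a was detected in 16 of 17 suprabasal-only and 14 of 27 basal-only members of wt replicate 4, and in 14 of 16 and 2 of 9 members of ungrouped library 2. Upk3a was detected in 2 of 17 and 15 of 27 members of wt replicate 4 and in 0 of 16 and 4 of 9 members of ungrouped library 2. In the other libraries, which held 1 suprabasal-only member, Upk1a was detected in 15.6% and Upk3a in 28.5% of 263 basal-only members.

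The question of whether Nalcn loss changed how many such cells there were had no clear answer. The share of passing barcodes was 0.118%, 0.329%, 0.518%, 0.444% and 0.348% in wt replicates 1 to 5, 0.293% and 0.445% in the het and 0.161% and 1.19% in the null libraries. Null replicate 2 lay within the range of the wt libraries and the library labelled null replicate 3 above it, so the groups overlapped. Nalcn-deleted libraries averaged 0.521% ± 0.458 (SD, n = 4) and wt 0.351% ± 0.151 (SD, n = 5), a difference of 0.170 percentage points (exact two-sided permutation p = 0.587; 0.533 when permuted within labelled sex). Without the library labelled null replicate 3 the difference turned to -0.0518 points (exact permutation p = 0.625). Null alone gave 0.673% ± 0.725 (SD, n = 2; exact permutation p = 0.286) and het alone 0.369% ± 0.107 (SD, n = 2; exact permutation p = 0.952). Labelled females averaged 0.659% ± 0.458 (SD, n = 3) and males 0.311% ± 0.156 (SD, n = 6), exact permutation p = 0.107. Of these 4 genotype and sex comparisons none passed 0.05. Without the exclusion genes in the rule the Nalcn-deleted difference turned to -0.418 points (exact permutation p = 0.460) and the female difference rose to 1.03 points (exact permutation p = 0.0357). With at least 4 rule genes the female difference was 0.217 points (exact permutation p = 0.0476). Wt replicate 5 held 1 of 287 barcodes at 4 rule genes and 7 without the exclusion genes. Without it the difference at 4 rule genes was as large, 0.226 points, in a smaller test (exact permutation p = 0.107), and that without the exclusion genes was 0.621 points (exact permutation p = 0.143). A share in a pooled suspension cannot tell more cells from a different mix of organs. In blood no member was found: 0 of 2109 passing barcodes of ZsGreen-sorted circulating cells (ntCZC), which allows a share of up to 0.142%, and 0 of 679 in unsorted mononuclear cells (PBMC), which allows up to 0.442%; these limits pool barcodes over libraries, cover counting error only and bound the share of barcodes that meet the rule, not of cells that express its genes. Sfn was the only rule gene with UMIs there.

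Nalcn (chr14:123276634-123627144), the gene targeted in the study, could not be checked in these cells: it had 1 UMI among the 2761607 of all members, in ungrouped library 1. Prom1, which drives the recombinase, was detected in 48 members (12.2%), at 0 to 72.6 CPM in libraries with at least 10 members. It stood at 66.0 and 72.6 CPM in wt replicates 2 and 3, 63.9 CPM in het replicate 2 and under 11 CPM in every other library.

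Genotypes were compared gene by gene on UMIs summed per library. With at least 20 members per library, 5 libraries entered (wt replicates 2, 3 and 4, het replicate 1 and the library labelled null replicate 3), and the model with labelled sex had 1 residual degree of freedom, so that its p-values lean on a spread borrowed across genes and are very small. A fit with at least 10 members added het replicate 2 and null replicate 2 and had 3. It was added after the counts were seen, and its values stand beside those of the first. Between Nalcn-deleted and wt members, the edgeR quasi-likelihood test called 207 of 5676 genes (3.65%; 116 higher, 91 lower) in 5 libraries and 80 of 4771 (1.68%; 57 higher, or 1.19%, and 23 lower) in 7, with 74 genes in both. Leaving out 1 library moved the 7-library count to 12 without wt replicate 2, 29 without wt replicate 3, 146 without wt replicate 4, 171 and 127 without het replicates 1 and 2, and 103 and 139 without null replicates 2 and 3. The 5-library fit holds 1 library of each deleted genotype, so leaving one out leaves the other genotype alone: 81 genes were called for null without het replicate 1, and 265 for het without the library labelled null replicate 3.

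The leading genes higher in the Nalcn-deleted members were transcripts of the epididymal duct. These genes were at or near 0 in wt members and passed the filter on low counts through the het and null libraries. No count over the epididymal list is therefore read here. Their test values and lack of overlap are given as a description only and support no difference. The share of all genes without overlap was not counted. Spink8, a protease inhibitor of the Kazal family, stood at 74.5, 12.2, 48.4 and 0 CPM in members of wt replicates 1 to 4, and at 7336, 27052, 7302 and 825 CPM in het replicates 1 and 2 and null replicates 2 and 3. The groups did not overlap (log2 difference 9.86 ± 0.70 (SE), adjusted p = 5.0e-40 in 5 libraries, and 9.0 ± 0.79, adjusted p = 0.00092 in 7). Without the exclusion genes in the rule, 7 libraries reached 20 barcodes, and their fit gave Spink8 a log2 difference of 2.72 and no call (adjusted p = 0.506). Gpx5, the secreted glutathione peroxidase of the epididymis, stood at 46.6, 8.68, 0 and 0 CPM in wt replicates 1 to 4, at 139 and 17167 CPM in the het and at 6266 and 5372 CPM in the null libraries. Defb20, an epididymal beta-defensin, was at 18.6, 8.68, 0 and 0 CPM in wt, 506 and 7143 CPM in het and 5213 and 3515 CPM in null members; its call in 7 libraries was lost without wt replicate 2 (adjusted p = 0.09996). Spink11, Spint5 and Defb42 were the other genes with the smallest p in this direction, and Spint5 did not pass in 7 libraries (adjusted p = 0.141). The high values came from few cells: 20 members had at least 2% of their UMIs from epididymal markers, 1 in het replicate 1, 5 in het replicate 2, 2 and 10 in the null libraries and 2 in ungrouped library 1, and none in a wt library. These were 4.55% and 27.8% of het, 14.3% and 9.01% of null and 6.67% of ungrouped library 1 members. Other barcodes of these libraries gave 2.46%, 3.95%, 10.1%, 8.55% and 3.89%. In wt replicates 1 to 3 the other barcodes gave 1.2%, 0.407% and 2.39%. The 20 members held a median of 11018 UMIs, and 9 of them were called doublets, against 16.2% of all passing tissue barcodes.

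The other barcodes of the same libraries moved the same way. Epididymal markers summed in them to 5110, 658.5, 3517, 10.1 and 33.7 CPM in wt replicates 1 to 5, to 9466 and 18590 CPM in the het and to 23627 and 30492 CPM in the null libraries. In wt replicate 3, where Spink8 reached 3246 CPM in other barcodes, its members held 48.4 CPM. Sequencing of more epididymal cells in het and null pools and a change in the members cannot be told apart from these values, and the part of free RNA was not tested. Without the cells at 2% or more, the test called 128 genes.

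**Figure D5:**
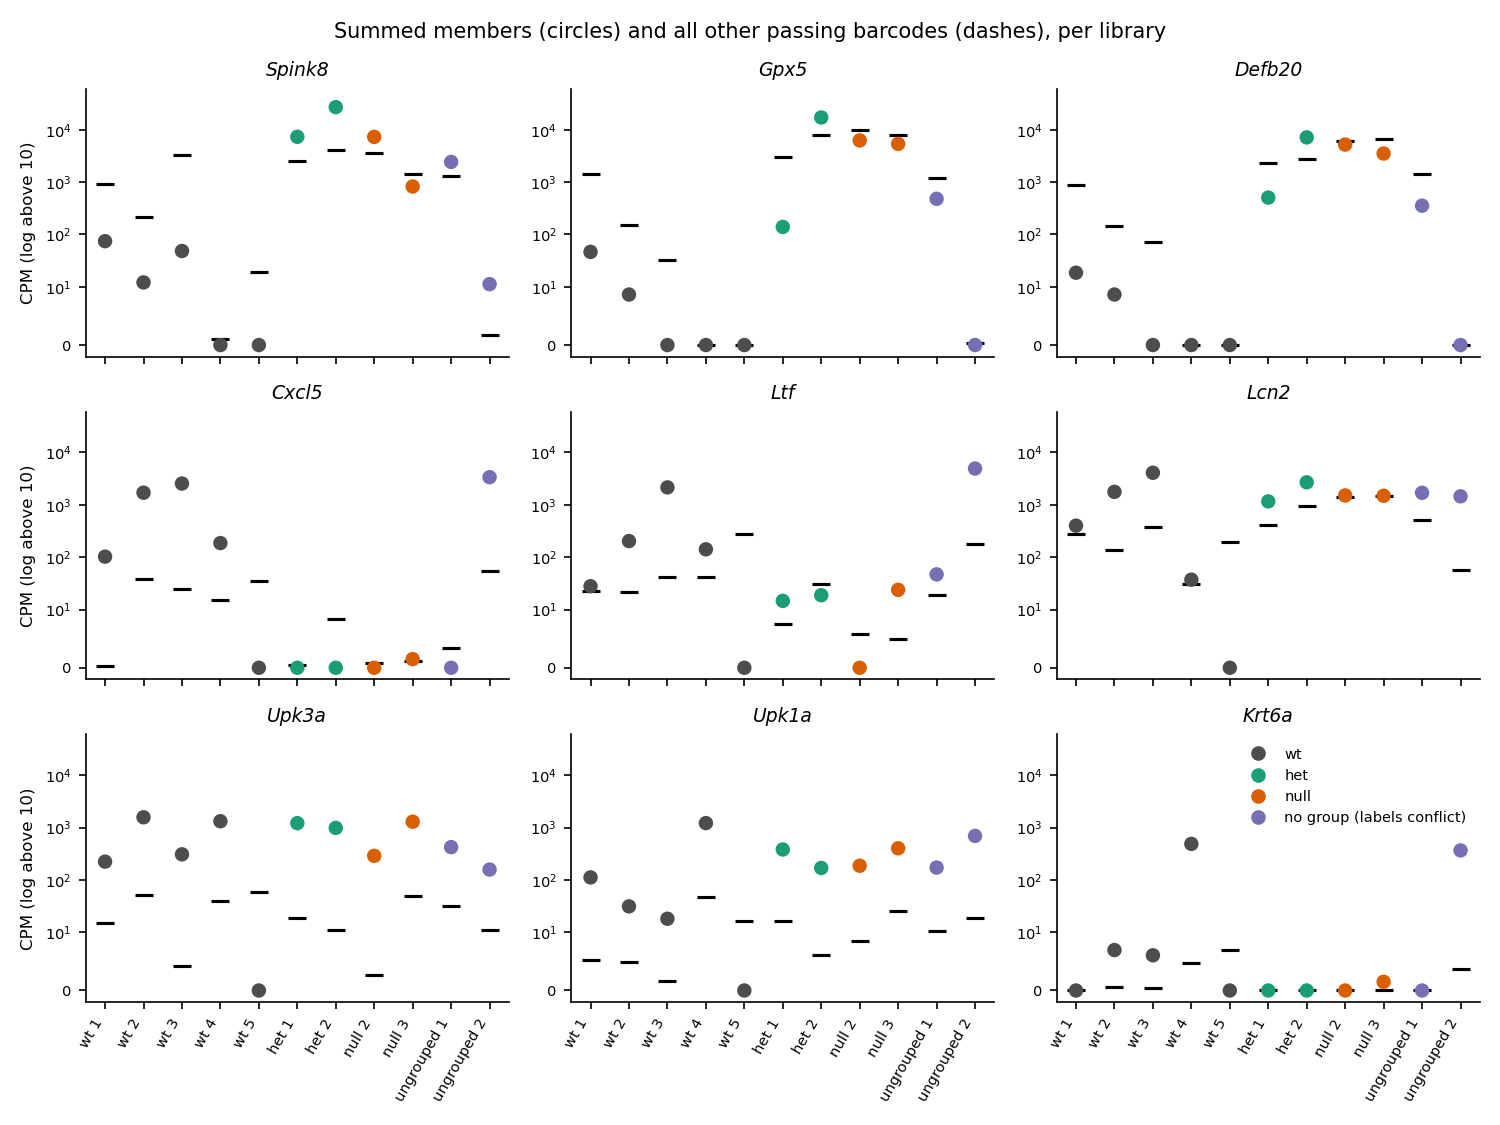
Levels of 9 genes in CPM, with the axis linear up to 10 and logarithmic above, in summed members (circles, coloured by genotype) and in all other passing barcodes (dashes) of each library. Spink8, Gpx5 and Defb20 are higher in het and null members than in wt members, Cxcl5 is at 0 to 1.49 CPM in the 4 Nalcn-deleted libraries, and Upk3a shows no order by genotype.

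The lower genes with the smallest p in the Nalcn-deleted members were Cxcl5, Krt16, Olfm4, Sprr2f and Ltf. Sprr2f and Ltf were 2 of the 6 tested uterine epithelium markers in 5 libraries and 2 of 4 in 7, against 1.6% and 0.482% of all genes lower, and no other marker of that list was called. Sprr2f had 0 UMIs in 3 Nalcn-deleted libraries and 104 in the library labelled null replicate 3, and Ltf had 0 to 16 in the 4. Both passed the filter on low counts mainly through wt libraries, so no count over this list is read here. The highest wt values of Sprr2f and Ltf were in libraries labelled male, which held no uterus, Sprr2f in wt replicates 2 and 3 and Ltf in wt replicate 3. Of 9 tested genes of barrier lipids and secreted defence, Lcn2 was higher and S100a8 lower in 5 libraries, against 2.04% and 1.6% of all genes, and only S100a9 was called, lower, in 7, against 0.482%. S100a9 overlapped between genotypes, with 340 CPM in null replicate 2 and 27.9 and 3.72 CPM in wt replicates 1 and 4. Cxcl5 (chr5:90759360-90761624), a chemokine ligand of CXCR2, stood at 102, 1705, 2553 and 186 CPM in wt replicates 1 to 4, at 0 in both het libraries and null replicate 2, and at 1.49 CPM (1 UMI) in the library labelled null replicate 3. Every wt library with more than 1 member was higher than every Nalcn-deleted library (adjusted p = 2.5e-29 in 5 libraries and 0.00070 in 7, log2 difference -9.58 ± 0.81 and -9.95 ± 0.61 (SE), sizes that depend on the model's treatment of zeros). Cxcl5 and Olfm4 were at or near 0 in Nalcn-deleted members and passed the filter through wt libraries. Their tests and lack of overlap are therefore a description, and the share of all genes without overlap was not counted. In other barcodes Cxcl5 was at 0.266 to 37.9 CPM in wt and 0.479 to 8.38 CPM in Nalcn-deleted libraries. Olfm4, a secreted glycoprotein, stood at 81.6, 84.7 and 227 CPM in wt replicates 2 to 4, at 0 CPM in wt replicate 1 and at no more than 3.76 CPM in Nalcn-deleted libraries (adjusted p = 8.6e-21 and 0.0024). Ltf, an iron-binding protein of secretions, stood at 27.9, 203, 2154 and 142 CPM in wt replicates 1 to 4 against 0 to 23.8 CPM (adjusted p = 2.7e-14 and 0.037), and lost the call with doublets removed, which left het replicate 1 too small to enter (adjusted p = 0.460), and, in the 5-library fit, without het replicate 1 (adjusted p = 0.871). Sprr2f, an oestrogen-responsive gene of uterine epithelium, stood at 2811, 907 and 309 CPM in wt replicates 2 to 4, at 18.6 CPM in wt replicate 1, at 0 in 3 Nalcn-deleted libraries and at 154.8 CPM in the library labelled null replicate 3 (adjusted p = 1.2e-16 and 0.037); with Scrublet doublets removed its direction turned (log2 difference 2.72), and without het replicate 1 it was not called (adjusted p = 0.960). Krt16 rested mainly on wt replicate 4 (588.4 CPM, against at most 69.5 CPM elsewhere in wt), where all 158 of its UMIs came from 1 of the 58 members. Lcn2, a siderophore-binding protein of inflamed epithelium, did not share the pattern: it was higher in the 5-library fit (adjusted p = 4.9e-05) but not called in 7 (adjusted p = 0.763), with 37.2 CPM in wt replicate 4 and 1163 to 2693 CPM in Nalcn-deleted libraries, inside the 400.5 to 4095 CPM of wt replicates 1 to 3.

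Of 11 tested stress and other stratified keratins, Krt16, Krt6a and Krt6b were lower in 5 libraries, where 1.6% of all genes were lower, and of 7 tested in 7 libraries Krt16 alone was, against 0.482%. In wt replicate 4 the 158 UMIs of Krt16 and the 115 of Krt6b each came from 1 member, and the 131 of Krt6a from 4. Each had at most 1 UMI in het replicate 1 and in the library labelled null replicate 3, and passed the filter through wt libraries. No count over this list is therefore read here. Of 6 tested interferon and MHC class II genes, Cd74, H2-Aa and H2-Ab1, which serve antigen presentation, were lower in 5 libraries and none was called in 7; leukocyte markers summed to 174 to 1806 CPM in members of the libraries tested, and their part was not tested. Of 4 tested leukocyte markers Cd52 was higher and Laptm5 lower in 5 libraries and neither was called in 7. Of 2 tested airway club genes Cyp2f2 was lower in both fits (log2 differences -4.23 and -4.14, adjusted p = 1.8e-13 and 0.0026), where 1.6% and 0.482% of all genes were lower. The other was called in neither fit. The median of the 2 was -1.75 and -2.06, so the other gene lay above these values. Of 5 tested gastric mucous genes Tff1, a peptide, was lower in 5 libraries (adjusted p = 0.00012), and none of 3 was called in 7 (adjusted p = 0.115 for Tff1). None of the 6 urothelial marker genes was called between Nalcn-deleted and wt members in either fit. Upk3a stood at 224, 1572, 309 and 1322 CPM in wt replicates 1 to 4, at 1215 and 985.5 CPM in het and 289 and 1294 CPM in null members, so that the groups overlapped (log2 difference 0.24 ± 0.38 (SE), adjusted p = 0.891). No gene of the desmosome, the junction or the suprabasal transcription factor list was called in either fit. Of 14 basal adhesion genes only Cd44 was called, lower by 1.43 ± 0.40 (SE) on the log2 scale, with adjusted p = 0.014 in 5 and 0.115 in 7 libraries. Of 12 tested cornified envelope genes 3 (Dmkn, Sprr2a3 and Sbsn) were lower in 5 libraries and none of 8 in 7. The study names 10 invasion and epithelial-mesenchymal transition genes as examples, in gastric stem cells soon after Nalcn deletion. The members here are other cells, from unsorted tissue of aged mice. Of these genes 3 were expressed enough to test, and none was called between Nalcn-deleted and wt. Mmp7 gave -0.59 ± 0.48 (SE) on the log2 scale (adjusted p = 0.732) and Timp3 0.35 ± 0.37 (adjusted p = 0.812). Mmp7 overlapped, at 18.6, 842, 387 and 26.1 CPM in wt replicates 1 to 4, 44.0 and 440 CPM in het and 0 and 143 CPM in null members. Mmp7, matrilysin, was called higher in null (2.60 ± 0.71, adjusted p = 0.014) and lower in het members (-3.79 ± 0.63, adjusted p = 2.6e-07) in 5 libraries and neither way in 7 (adjusted p = 0.967 and 0.849), and the difference between null and het was not tested. Of 7 tested proliferation genes Mki67 and Top2a were lower in 5 libraries, both high in wt replicate 3 alone, and none of 3 was called in 7. The test was weak on simulated counts, which had 1 fixed spread for all genes that was not estimated from these data. Of 100 simulated 8-fold changes it found 26 in 5 libraries and 60 in 7, and of 100 simulated 2-fold changes 1 and 2. It also called 0 and 3 unchanged genes. The real spread can differ, so these counts do not give the power on the real data.

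Null and het were each also set against the same wt libraries, and share these controls. In the 5-library fit the null estimate rests on the library labelled null replicate 3 against wt replicate 4, the other female library, in which epididymal transcripts were near 0. It called 130 genes (2.29%; 99 higher, 31 lower), and the 7-library fit 29 (0.608%), with 26 in both. Epididymal genes made up its leading higher genes, Gpx5, Lcn8, Spag11b, Defb20 and Defb48, each with 0 UMIs in members of wt replicate 4, so that they could be tested only through the libraries where they were high. In 7 libraries Lcn8 was not called (adjusted p = 0.520). Leaving out 1 library gave 7-library counts from 5, without wt replicate 2, to 107, without het replicate 1; it was 102 without het replicate 2 and 19 without wt replicate 3. The 5-library count was 81 without het replicate 1. Without the library labelled null replicate 3 the 5-library fit holds no null library, and the 7-library fit, then resting on null replicate 2 alone, called 39 genes. Markers of other cell types were also higher in the null estimate of 5 libraries, with 3 of 4 tested red cell genes (Hba-a2, Hbb-bs and Hbb-bt), 2 of 4 kidney tubule genes (Fxyd2 and Miox), Alb, the 1 hepatocyte gene tested, and Actg2 of smooth muscle, where 1.74% of all genes were higher, and none of these lists gave a call in 7, where 0.524% were; their part in the result was not tested. Defb48 came almost wholly from 1 library (1872 CPM in that labelled null replicate 3, against 0 in null replicate 2). The leading lower genes were Krt16, Krt6b, Krt6a, Krt1 and Olfm4. Krt6a stood at 488 CPM in wt replicate 4 and at most 6.95 CPM in the other wt libraries; its 131 UMIs in wt replicate 4 came from 4 members, and the 115 of Krt6b from 1. Of these 5 genes the filter of the 7-library fit kept Krt16 and Olfm4 (adjusted p = 0.038 and 0.0070). Krt16, Krt6b and Olfm4 had 0 UMIs in members of both null libraries, and Krt6a had 1 in the library labelled null replicate 3. They passed the filter through other libraries, so their tests are a description.

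Het against wt called 282 genes (4.97%; 130 higher, 152 lower) in 5 libraries and 66 (1.38%) in 7, with 61 in both. The single het library of the 5-library fit, het replicate 1, had 19 of its 22 members called doublets, against 10.3% of its passing barcodes. Other markers moved in that fit, with Lyz2, Laptm5 and Tyrobp lower and Cd52 higher of 4 tested leukocyte genes, 3 of 6 uterine genes (Sprr2f, Ltf and Wfdc2), Cyp2f2, Tff1, Sftpd, Msln and Hbb-bt lower, Upk3b higher, and Prom1 lower (log2 difference -7.67, adjusted p = 0.00098); of these, Cyp2f2 and Sprr2f were also called in 7 libraries. Of the 6 urothelial markers Upk1a was higher in het (log2 difference 3.83 ± 0.56 (SE), adjusted p = 8.9e-10) and not called in 7 libraries (adjusted p = 0.264). The part of these markers in the result was not tested. Without wt replicates 2 and 3 in turn the 7-library count was 1 and 15, and without wt replicate 4, het replicate 1 and null replicates 2 and 3 it was 156, 156, 162 and 158. Spink8 (adjusted p = 0.0012 in 7 libraries), Defb28 and Defb29 led the higher genes with Spint5 and Wfdc13, of which the last pair did not pass in 7. All 5 were at or near 0 in wt members and passed the filter through the libraries where they were high, so their tests are a description. The lower genes were Cxcl5 (adjusted p = 0.0012), Sprr2f, Reg3g, an antimicrobial lectin, Ifitm1 and Il33, an alarmin of basal epithelial nuclei. Cxcl5, Sprr2f and Il33 were at 0 in both het libraries and passed the filter through others, so the same limit holds for them. Il33 stood at 221, 659 and 52.1 CPM in wt replicates 2 to 4 and 9.31 CPM (1 UMI) in wt replicate 1, at 0 in both het and in null replicate 2, and at 25.3 CPM in the library labelled null replicate 3 (adjusted p = 0.033 in 7 libraries). In 7 libraries Reg3g and Ifitm1 were not called (adjusted p = 0.113 and 0.0599), and Il33 was not called without wt replicate 2 or 3 (adjusted p = 0.143 and 0.0918).

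Labelled sex gave calls that 1 library decided. Female against male called 182 genes (3.21%; 83 higher, 99 lower) in 5 libraries but 2 (0.0419%) in 7, Xist and S100a9, with 343 at an unadjusted p under 0.05, and DESeq2 called 10. Without het replicate 1 the 5-library fit called 43, and without the library labelled null replicate 3 it called 187 and the 7-library fit 14. The sex term in the 5-library fit rests on wt replicate 4 against wt replicates 2 and 3. Xist, the non-coding RNA of the inactive X, stood at 3270 CPM in members of wt replicate 4 and 1808 CPM in the library labelled null replicate 3, and at no more than 17.0 CPM in labelled-male libraries. Krt1, Krt6b, Krt6a and Clca1 followed it, with 484.1, 428.3, 488 and 298 CPM in wt replicate 4; of these, only Clca1 (8.93 CPM) and Krt1 (7.44 CPM) exceeded 5 CPM in the library labelled null replicate 3. The stress keratins came from few cells, since 6 members had at least 2 of Krt6a, Krt6b, Krt16 and Krt1. Of these, 3 were in wt replicate 4, 1 in wt replicate 2 and 2 in ungrouped library 2, which entered no test. Fewer than 2 uroplakin genes and under 2% epididymal transcripts were found in 5 of the 6, which held 5310 CPM of Krt6a. Of the uroplakins, Upk1a was at 1218 CPM in wt replicate 4 and 402.0 CPM in the library labelled null replicate 3, which went against its labels. In the 5 male libraries with at least 10 members it was at 31.3, 18.1, 381.6, 169.3 and 186.8 CPM (adjusted p = 3.9e-20 in 5 libraries, 0.344 in 7). The 1 member of wt replicate 5, labelled female, held 0 CPM. The share of all genes without overlap by sex was not counted. Upk2 and the urothelial antigen Psca were also higher in 5 libraries, 3 of 6 urothelial markers with Upk1a, and none was called in 7. Of 11 tested stress and other stratified keratins 5 were higher in 5 libraries (Krt1, Krt6b, Krt6a, Krt16 and Krt10), where 3.21% of all genes were called. Among markers of other cell types, 2 of 2 epidermal genes (Krt1 and Krt10) and 2 of 4 mesothelial genes (Upk3b and Igfbp5) were higher there. All 4 of 4 red cell genes were lower, with Ltf and Sprr2f of the uterine list, Scgb1a1, Lyz2 and Kap. None of these was called in 7, and their part in the result was not tested. Lower genes were Lcn2, Ifitm1, S100a9, Cxcl2 and Ceacam10, of which S100a9 (3.72 and 14.9 CPM in the female libraries; 361, 236, 3.67, 0 and 340 CPM in the male ones) kept an adjusted p of 0.029 in 7 libraries although the groups overlapped. Without wt replicate 2, 3 or 4 the 7-library fit called 0 genes by sex in edgeR, with 246, 292 and 509 at an unadjusted p under 0.05.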

How the data were processed

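The authors aligned 10x 3′ reads to mouse mm10 and deposited filtered matrices of raw UMI counts per gene and barcode. Matrix headers name Cell Ranger 3.0.2, the submitters' processing notes 2.1.1. The deposited counts carry no normalization or doublet removal, so free RNA and doublets stay in them. Members and gene lists were chosen with earlier results of these data known. Doublets (Scrublet in scanpy 1.11.5) were called but kept. Counts were summed per library, since cells are not replicates, and tested with edgeR 4.0.16 (TMM, filterByExpr, labelled sex as covariate, quasi-likelihood test, Benjamini-Hochberg threshold 0.05); rule genes were left out of calls. CPM is UMIs of the summed cells scaled to a total of 1000000. With 1 residual degree of freedom the spread is borrowed across genes, so adjusted p-values of the 5-library fit are far smaller than the data alone would give. Shares were compared by exact permutation over libraries; the planned test of the basal share is left out, since its genes chose the members. Intervals are exact 95% Clopper-Pearson; the limit for 0 cells uses 3 counts. Genes named are, per edgeR comparison, up to 5 higher and 5 lower with the smallest p, and the fixed lists' genes. Per class contrast they are those over 50 CPM with the largest pooled ratio and the same direction in every library compared. Other genes given were chosen after their values were seen. Total UMIs per tissue library ran from 8571019 to 139793927. Coordinates come from GENCODE annotation of mm10. The test was checked on simulated data. The labels' replicate numbers are not said to mark litters or batches. DESeq2 1.42.0, RLE, stricter filters and leaving out each library were alternatives. The 2 ungrouped libraries entered no test.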

Additional observations from a re-analysis of the deposited data

Results flagged for a closer look

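Members of both ungrouped libraries, which entered no test, held levels over 2 times the highest wt library for some of the genes named above. In ungrouped tissue library 1 these were epididymal transcripts, with Spink8 at 2433 CPM, Defb20 at 355.0 CPM, Gpx5 at 480.3 CPM, Lcn8 at 318.5 CPM, Spag11b at 266.3 CPM and Defb28 at 422.9 CPM. In ungrouped tissue library 2 they were Ltf at 4936 CPM, S100a9 at 3725 CPM and Olfm4 at 552.2 CPM. Each library's genotype is in doubt, so these values bear on no genotype.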

How the results depend on the processing

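Counts of called genes depended on the settings. With 20 members they were 207 (Nalcn-deleted), 130 (null), 282 (het) and 182 (female). RLE scaling gave 100 (Nalcn-deleted), 78 (null), 116 (het) and 52 (female). DESeq2 gave 49 (Nalcn-deleted), 30 (null), 49 (het) and 21 (female). A fit without sex gave 42 (Nalcn-deleted), 64 (null) and 26 (het). Removal of Scrublet doublets also dropped het replicate 1, leaving null alone against wt in 4 libraries, with 119 genes as both the null and the Nalcn-deleted count, and 265 (female). The minimum of 10 members gave 80 (Nalcn-deleted), 29 (null), 66 (het) and 2 (female). DESeq2 at 10 members gave 147 (Nalcn-deleted), 55 (null), 126 (het) and 10 (female). A replicate block at 10 members gave 289 (Nalcn-deleted), 226 (null), 226 (het) and 0 (female). This block took the place of labelled sex in the genotype models and of genotype in the sex model. Its female contrast rests on the library labelled null replicate 3 against wt replicate 3, where sex and genotype cannot be told apart. Het replicate 1 and wt replicate 4 were alone in their blocks and added nothing to its contrasts. No exclusion genes (7 libraries) gave 116 (Nalcn-deleted), 39 (null), 98 (het) and 2 (female). Removal of cells at 2% or more epididymal UMIs gave 128 (Nalcn-deleted), 63 (null), 210 (het) and 184 (female). Leaving out each library of 7 in turn gave 12 to 171 (Nalcn-deleted), 5 to 107 (null), 1 to 162 (het) and 0 to 39 (female). In the 5-library fit, leaving out het replicate 1 gave 81 (null alone) and 43 (female), and leaving out null replicate 3 gave 265 (het alone) and 187 (female). Without het replicate 1, the 7-library female comparison called 37 genes, and without wt replicate 2 the 7-library Nalcn-deleted comparison called 12. Where the female comparison called 0 genes in edgeR, 181 passed an unadjusted p under 0.05 with the block. Not run, because no residual degree of freedom or no group was left, were at least 50 members, mitochondrial UMIs at most 10%, at least 4 rule genes, the block at 20 members, and each wt library left out at 20 members. Deviations of same-numbered libraries gave r from -0.0433 to 0.0513 (4 pairs, 4776 genes). With 2 het and 2 null libraries, deviations from a group mean are mirror images. Wt replicate 2 gave 0.00888 with het replicate 1 and -0.00888 with het replicate 2. These values therefore cannot tell whether the numbers pair libraries, and the block is given only here. Among values of named genes under the alternatives, 504 stayed on their side of the threshold, 160 lost the call and 7 turned: Sprr2f with doublets removed (2.72, Nalcn-deleted), Krt1 (1.84, null), Krt6a (-1.60, female) and Wfdc13 (-0.31, het) with the block, Wfdc13 without het replicate 1 (range without each library -0.36 to 10.01), and Lcn2 (range -6.24 to 0.15) and Ifitm1 (range -6.20 to 6.80) without wt replicate 4 (female), all log2. The cause was not tested.

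The share difference between Nalcn-deleted and wt, 0.170 points, turned to -0.418 with no exclusion genes and ranged from -0.0518 to 0.290 as each library was left out; it passed no test. The female difference, 0.349 points, passed at 4 rule genes (0.217 points, exact permutation p = 0.0476) and with no exclusion genes (1.03 points, exact permutation p = 0.0357), and without wt replicate 5 was 0.226 and 0.621 points at these settings with no call,, and ranged from 0.0856 to 0.504 without each library. The basal share difference ranged from -0.521 to 18.8 points without each library, and was -2.13 points at 10% mitochondrial UMIs. At 10%, only wt replicate 2 (48 members) and the library labelled null replicate 3 (58 members) kept enough members to enter. Wt replicate 4, the lowest library of the main comparison, fell to 16 members (8 basal-only, 4 suprabasal-only) and dropped out. The value at 10% therefore sets 1 library against 1 and cannot show a change of direction between the groups. The share of members with 2 uroplakins was 41.8% at 10% mitochondrial UMIs and 30.4% at 4 rule genes. At 1 to 111 members per library, absent calls show little.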
